A study of Mus musculus with 8 samples.

Results

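S100 proteins, annexins, galectins and the adhesion receptor CD44 were followed here as a set of 10 genes: S100a4, S100a6, S100a10, S100a11, Anxa1, Anxa2, Anxa6, Lgals1, Lgals3 and Cd44. They were taken by symbol from the 54837 genes of the count table and matched to their Ensembl identifiers, and all 10 were among the 18851 genes kept by a filter on low counts. The genes were chosen by name with earlier results of these 8 libraries already known, and which values guided the choice was not stated. The levels are therefore a description, and the tests below are not independent support for any direction. RNA was sequenced from CD4 T cells sorted from mouse spleen, in 8 libraries of 3 groups. GFPhi (n = 3) holds cells sorted as TIM-3+, FLAG+, GFP+ and FoxP3+. Their mice have the Foxp3-eGFP-Cre-ERT2 allele, which expresses eGFP and a tamoxifen-dependent Cre recombinase from Foxp3, together with FSF-TIM-3. GFPlow (n = 3) holds cells sorted as TIM-3+, FLAG+, GFP- and FoxP3- from mice with both alleles as well, although the library titles name every sample Treg. WT (n = 2) holds cells sorted as TIM-3-, FLAG-, GFP+ and FoxP3+, and their mice have Foxp3-eGFP-Cre-ERT2 without FSF-TIM-3. Mice of every group received tamoxifen on 5 consecutive days, so no group lacks the drug or the Cre allele. The series title names the question as the effect of TIM-3 on regulatory T cell gene expression. WT also differs from both other groups in its sort gate, and the effect of the transgene and the selection of cells by the TIM-3 gate cannot be told apart. The labels do not say whether each library came from its own mouse, so p-values measure only the spread between these libraries.

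S100 proteins are small calcium sensors that bind partner proteins once they hold calcium, and annexins bind acidic membrane phospholipids when calcium rises. The families meet in one complex, in which the p11 protein encoded by S100a10 pairs with annexin A2 at the membrane. Galectins bind sugars on surface glycoproteins, and CD44 binds hyaluronan. In T cells, transcripts of these genes are known to be higher after activation and in memory and effector states than in naive cells, and CD44 is the usual surface marker of antigen-experienced mouse T cells.

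The 4 genes called higher in GFPlow than in WT once WT library 1 was left out, S100a4, S100a6, S100a11 and Anxa2, are shown by the 300 bases around their annotated starts. They also varied together over those libraries, but the low WT library 2 by which they were picked is one of them. That they varied together is therefore not separate support for a shared group. The sequences are from RefSeq (GRCm38.p6), 250 bases before the start to 50 after it, 5′ to 3′, with motif matches in capitals.
S100a4, chr3:90603520-90603819, plus strand: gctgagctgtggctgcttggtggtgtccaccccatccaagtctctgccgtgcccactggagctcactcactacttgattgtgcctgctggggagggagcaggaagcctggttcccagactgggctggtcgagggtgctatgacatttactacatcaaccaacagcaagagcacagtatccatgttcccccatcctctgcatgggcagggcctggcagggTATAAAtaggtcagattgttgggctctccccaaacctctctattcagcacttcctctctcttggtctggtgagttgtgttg
S100a6, chr3:90612644-90612943, plus strand: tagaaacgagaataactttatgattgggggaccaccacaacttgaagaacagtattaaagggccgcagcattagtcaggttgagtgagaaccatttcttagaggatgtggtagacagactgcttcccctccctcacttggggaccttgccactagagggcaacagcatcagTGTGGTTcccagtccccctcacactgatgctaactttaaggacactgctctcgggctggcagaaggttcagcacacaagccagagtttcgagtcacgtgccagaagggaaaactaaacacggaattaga
S100a11, chr3:93520246-93520545, plus strand: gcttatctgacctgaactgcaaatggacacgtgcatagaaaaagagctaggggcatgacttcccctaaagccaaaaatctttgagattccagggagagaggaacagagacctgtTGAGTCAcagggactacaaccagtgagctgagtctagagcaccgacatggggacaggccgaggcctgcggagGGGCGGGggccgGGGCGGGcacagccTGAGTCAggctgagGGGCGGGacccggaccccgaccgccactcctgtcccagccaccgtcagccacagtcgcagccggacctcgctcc
Anxa2, chr9:69453433-69453732, plus strand: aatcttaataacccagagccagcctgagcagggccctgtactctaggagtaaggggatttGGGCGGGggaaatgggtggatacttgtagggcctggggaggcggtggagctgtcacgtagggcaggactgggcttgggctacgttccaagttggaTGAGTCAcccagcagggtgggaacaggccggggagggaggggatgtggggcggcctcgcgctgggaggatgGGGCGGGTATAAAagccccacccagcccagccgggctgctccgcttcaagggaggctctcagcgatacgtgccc
RefSeq promoters were found for 7 of the 10 genes. S100a10, Anxa6 and Lgals1 had no entry. In the 7, the 7 motifs searched on both strands gave 14 matches, and none overlapped another. The AP-1 motif (TGANTCA) stood in Anxa2 and in S100a11 at 2 places, and in 7.81% of all 32841 promoters of that length. The SP and KLF motif (GGGCGGG) stood in Anxa2, S100a11 and Lgals3, and in 25.6% of all promoters. The TATA motif (TATAAA) stood in S100a4, Anxa2 and Anxa1, and in 13.6% of all promoters. In Anxa2 it directly follows a GGGCGGG match, which gives the longest run of capitals above. The RUNX motif (TGTGGTT) stood in S100a6 and in 5.27% of all promoters. No letters of the T-box (GGTGTGA, 3.98% of all promoters), forkhead (GTAAACA, 3.65%) or NF-kappaB motif (GGG and TTTCC with any 2 bases between, 1.63%) were in the 7 windows. No motif was common to all 4 promoters shown.

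Total counts ran from 44446215 to 55388756 per library. WT library 1 was unlike the rest. It had 18599 genes with counts, where the other 7 had 21248 to 22185, and a TMM scaling factor of 0.694, where theirs were 1.041 to 1.07. Havcr2, which encodes TIM-3, was at 1077 to 1791 CPM (TMM-scaled counts relative to library size) in GFPhi, 127.1 to 538.2 CPM in GFPlow and, in WT libraries 1 and 2, 0.876 and 0.172 CPM. Foxp3 was at 60.2 to 80.9 CPM in GFPhi, 1.97 to 4.82 CPM in GFPlow and, in WT libraries 1 and 2, 41.7 and 63.2 CPM. The sort used both proteins, and these values serve as a check of the labels. Cd4 was present at 109.3 to 436.3 CPM. Of the CD8 markers listed, Cd8a was at 4.05 CPM or less, while Cd8b1 was at 15.9 to 37.7 CPM over the 8 libraries. The X-inactivation gene Xist was at 183.8 to 242.2 CPM in GFPhi library 3, GFPlow library 3 and WT library 2, while the other 5 had at most 0.263 CPM. The Y-linked gene Ddx3y reached 170.3 to 228.5 CPM in those 5 libraries and had 0 counts in GFPhi library 3 and GFPlow library 3. Besides its Xist, WT library 2 held 6.16 CPM of Ddx3y.

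Transcripts of myeloid cells were uneven in the same libraries. The list holds 14 markers, and its sum ran from 510.9 to 671.3 CPM in GFPhi, from 366.4 to 731.6 CPM in GFPlow and was 1531 and 743.5 CPM in WT. Ctss and Cybb made up most of that sum and were abundant in every library. Without them, a choice made after their values were seen, the other 12 markers summed to 6.62, 4.88 and 70.3 CPM in GFPhi libraries 1 to 3 and to 32.0, 9.59 and 308.7 CPM in GFPlow libraries 1 to 3. In WT they summed to 18.8 and 54.5 CPM. The macrophage lysozyme Lyz2 alone was at 197 CPM in GFPlow library 3, Csf1r was at 11.1 CPM there, and Cd14 was at 0 in 5 libraries. The neutrophil genes S100a8 and S100a9 were at or near 0 throughout, with at most 35 and 5 counts in any library.

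**Figure D1:**
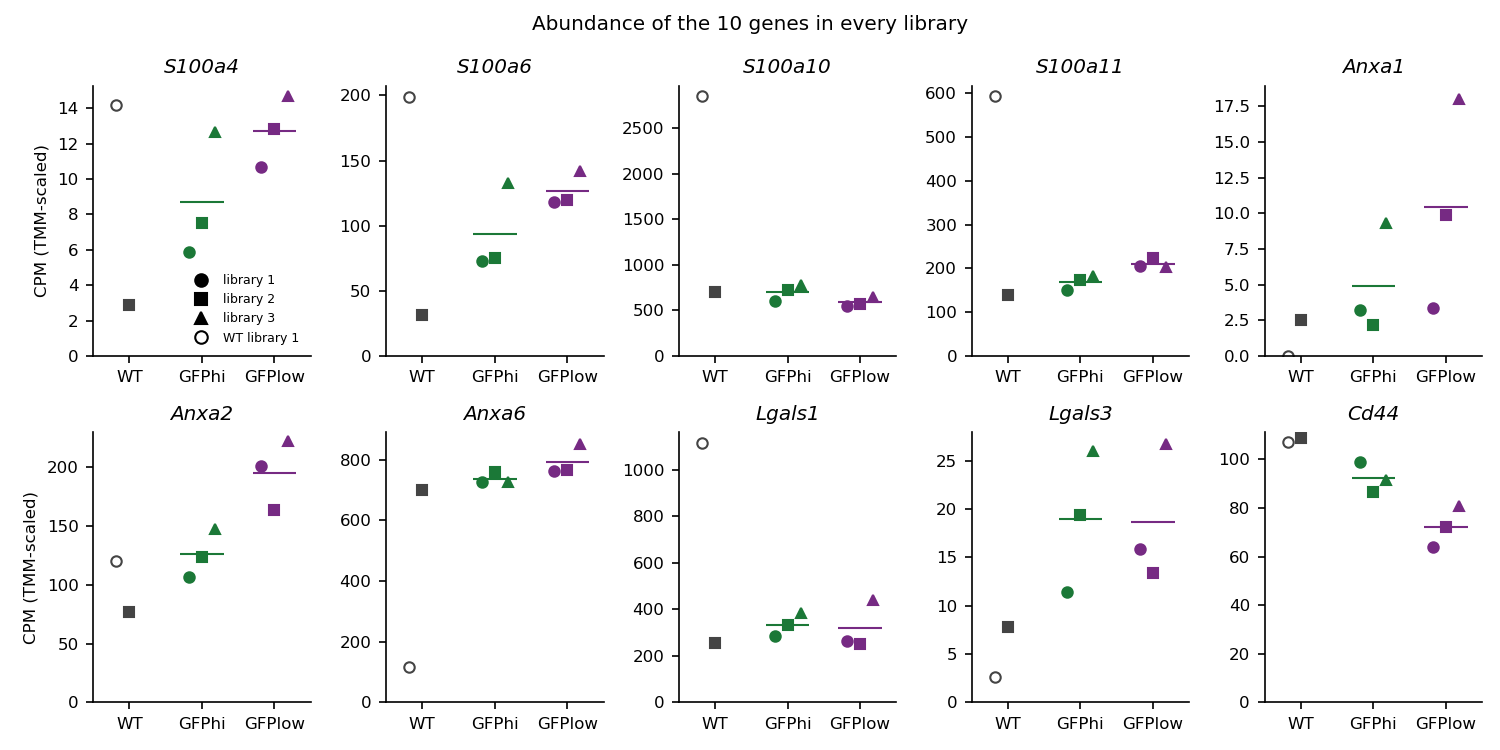
Abundance of the 10 genes in every library, in CPM on a linear axis that starts at 0. Symbols give the library number, horizontal lines the mean of the 3 GFPhi or GFPlow libraries, and the open circle WT library 1, which lies at 2851 CPM for S100a10 and at 0 for Anxa1.

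The genes span a wide range of abundance. Per kilobase of the principal transcript (CPM per kb), the GFPhi medians were 1050 for S100a10, 415 for Lgals1, 341 for S100a11 and 292 for Anxa6. S100a6 followed at 103 and Anxa2 at 85.6 CPM per kb. Cd44 at 16.3, S100a4 at 15.1 and Lgals3 at 13.7 CPM per kb lay close together, and Anxa1 was the lowest at 1.92. S100a10 stood at the 99.4th percentile or above of 12930 genes with a principal transcript in every library.

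The WT libraries differed widely for most of the 10 genes, upwards in WT library 1 for the short ones and downwards for 3 of the longer ones. WT library 1 exceeded WT library 2 by 4.08-fold to 6.34-fold for S100a4, S100a6, S100a10, S100a11 and Lgals1, the 5 genes with an mRNA of 1000 bases or less. None of the 5 longer genes was over 4-fold higher in WT library 1. Of all genes tested with a mean log2 CPM above 3, 25.2% of the 568 with an mRNA of up to 1000 bases and 1.19% of the 7722 longer ones passed that fold. The median ratio of WT library 1 to WT library 2 was 3.58-fold for mRNAs of up to 750 bases, 2.7-fold from 750 to 1000 bases and 0.682-fold from 2000 to 3000 bases. S100a4 (498 bases), S100a6 (731 bases) and Lgals1 (800 bases) lay above the upper quartile of their length class, while S100a10 (685 bases) and S100a11 (511 bases) lay between the quartiles. Anxa6 (2489 bases), Lgals3 (1419 bases) and Anxa1 (1674 bases) lay below the lower quartile of theirs. The comparisons of the 10 genes with WT are therefore given with both WT libraries and again with WT library 2 alone.

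**Figure D2:**
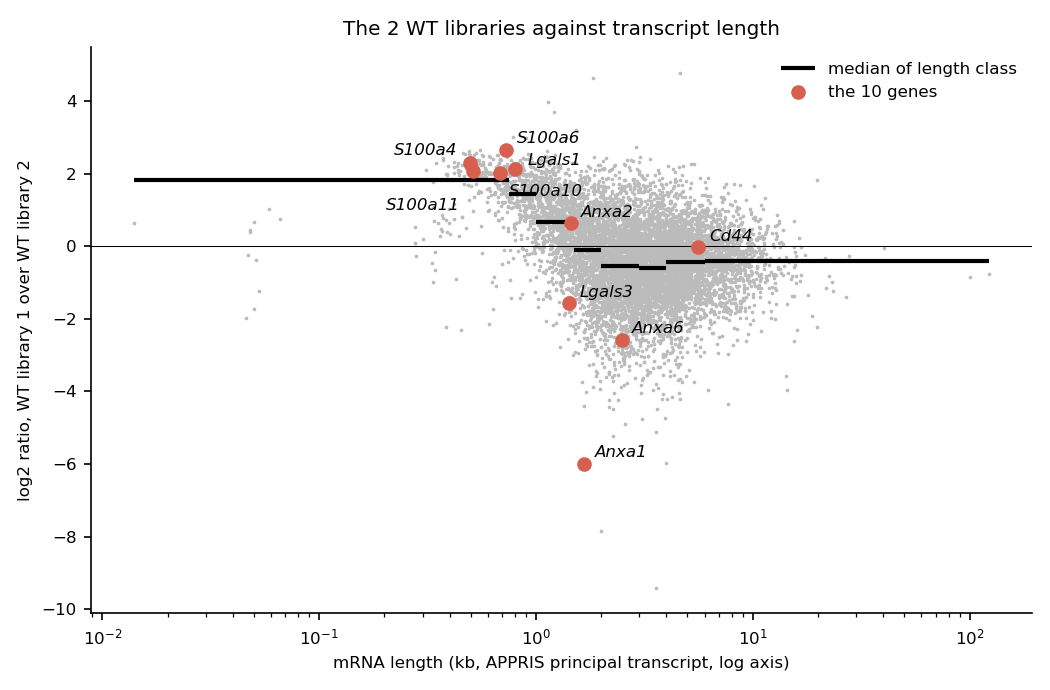
Log2 ratio of WT library 1 to WT library 2 (vertical axis, prior count of 2) against mRNA length in kb on a log axis. Grey points are genes tested with a mean log2 CPM above 3, black bars the medians of length classes, and red points the 10 genes, of which the 5 shortest lie above a log2 ratio of 2.

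Across the 10 genes, edgeR's quasi-likelihood test on all 8 libraries called none at an adjusted p of 0.05 in any comparison. Of all genes tested, 2.26% passed between GFPhi and GFPlow (1.63% higher and 0.626% lower in GFPhi). Between GFPlow and WT 3.3% passed (1.08% higher and 2.23% lower in GFPlow), and between GFPhi and WT 0%. At an unadjusted p of 0.05 there were 1, 4 and 3 of the 10, and of all genes 2194, 4722 and 2588. DESeq2 called 0, 4 and 1 of the 10, and limma voom with quality weights called 1, 0 and 0. The number of all genes called also changed with the tool, as given in the section on processing. These counts are therefore not a result about the 10. The median log2 difference of the 10 was -0.21 between GFPhi and GFPlow, 0.36 between GFPlow and WT and -0.10 between GFPhi and WT. Over all genes tested these medians were 0.01, 0.02 and 0.08. In the fit without WT library 1, 2 of the 10 were lower in GFPhi than in GFPlow and 0 were higher, beside 4.3% and 5.35% of 20545 genes (9.66% in all). In that fit 4 of the 10 were higher in GFPlow than in WT library 2 and 0 were lower, beside 2.5% and 3.39% of genes (5.88% in all). None differed between GFPhi and WT library 2, where 0% of genes passed, while 5 of the 10 and 1011 of all genes had an unadjusted p under 0.05. The 3 comparisons share libraries, so their calls are not independent of each other. With WT library 1 left out, WT is a lone library that is assumed to vary like the others. That library was high in Xist, as GFPlow library 3 was, while GFPlow libraries 1 and 2 were not. The part of this difference in the 4 genes called higher in GFPlow was not tested.

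**Figure D3:**
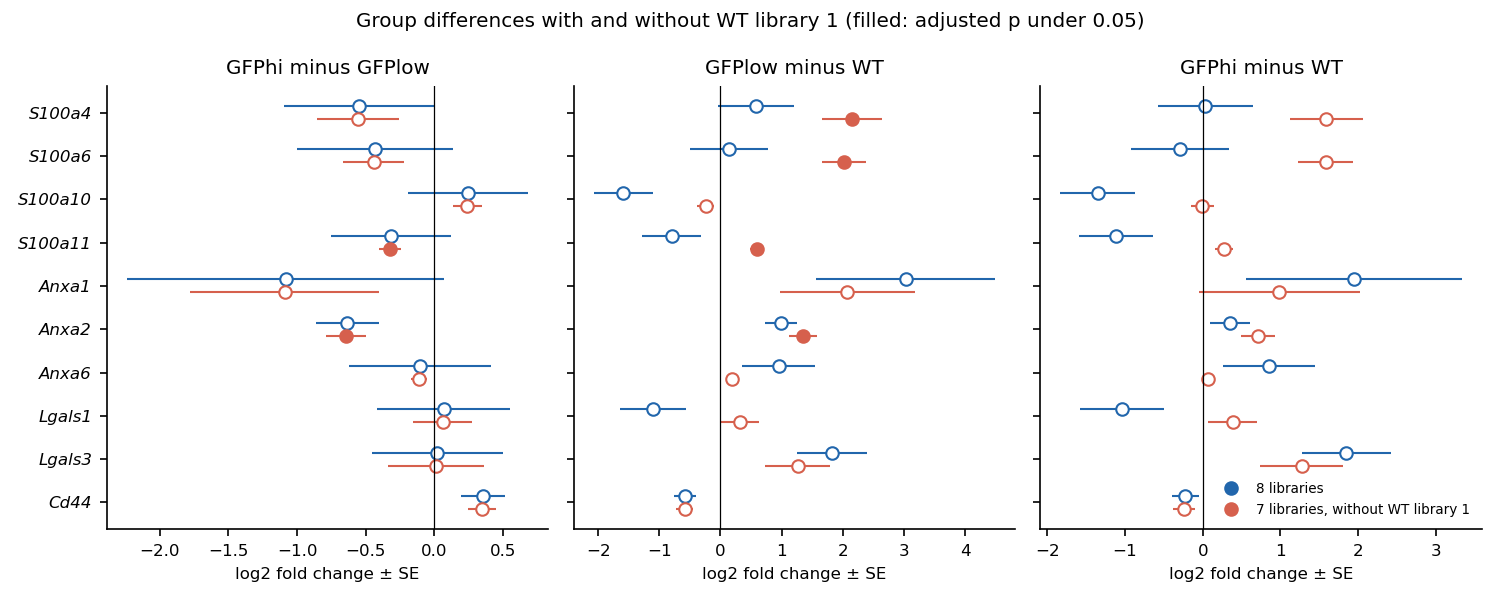
Log2 fold change ± SE of the 10 genes in each comparison, from the fit of all 8 libraries (blue) and the fit without WT library 1 (red). Filled points passed an adjusted p of 0.05, which S100a11 and Anxa2 did between GFPhi and GFPlow and S100a4, S100a6, S100a11 and Anxa2 did between GFPlow and WT, in the fit without WT library 1 only.

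S100a4 and S100a6 lie in the S100 gene cluster of chromosome 3 and had nearly the same pattern over the libraries. S100a4 (ENSMUSG00000001020, GRCm38 chromosome 3, 90603771 to 90606045, plus strand) encodes a calcium sensor that binds non-muscle myosin. It was at 5.87, 7.51 and 12.7 CPM in GFPhi, 10.7, 12.8 and 14.7 CPM in GFPlow, and 14.2 and 2.88 CPM in WT libraries 1 and 2. GFPhi libraries 1 and 2 lay below all GFPlow libraries, GFPhi library 3 lay among them, and WT library 2 was the lowest of the 8. The means were 8.68 ± 3.55 CPM (SD, n = 3) in GFPhi and 12.7 ± 2.002 CPM (SD, n = 3) in GFPlow. The log2 difference was -0.55 ± 0.55 (SE; adjusted p = 0.944).

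S100a6 (ENSMUSG00000001025, chromosome 3, 90612882 to 90624181, plus strand) encodes calcyclin, and 6836 bases, in which S100a5 is annotated, lie between its start and the end of S100a4. It was at 73.3, 75.5 and 132.5 CPM in GFPhi, 118.2, 119.9 and 142 CPM in GFPlow, and 198.9 and 31.3 CPM in WT libraries 1 and 2. GFPhi libraries 1 and 2 and WT library 2 were again the lowest of the 8, and WT library 1 was the highest. The log2 difference between GFPhi and GFPlow was -0.43 ± 0.57 (SE; adjusted p = 0.9999). Over all 8 libraries the Pearson correlation of log2 CPM between S100a4 and S100a6 was 0.971, the highest of the 45 pairs. Without WT library 1 it was 0.988. These values describe libraries that share depth, length effects and cell makeup.

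Against WT, both genes turned on which WT library was used. With both, the log2 difference of GFPlow from WT was 0.58 ± 0.62 (SE) for S100a4 and 0.14 ± 0.63 for S100a6, with adjusted p of 0.566 and 0.908. Against WT library 2 alone, S100a4 was higher in GFPlow by 2.15 ± 0.49 on the log2 scale (4.44-fold; adjusted p = 0.0437). S100a6 was higher there by 2.02 ± 0.36 (4.06-fold; adjusted p = 0.0178). All 3 GFPlow libraries lay above WT library 2 for both genes. For S100a6, GFPhi differed from WT library 2 by a log2 of 1.58 ± 0.35, with an adjusted p of 0.911 over all genes. Against WT library 1 alone the log2 differences of GFPlow turned to -0.13 for S100a4 and -0.63 for S100a6.

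S100a11 and S100a10, which lie next to each other further along chromosome 3, did not follow that pattern in the same way. S100a11 (ENSMUSG00000027907, 93520488 to 93526287, plus strand) encodes a calcium sensor that binds annexin A1. It was at 151.5, 174 and 182.7 CPM in GFPhi, 204.9, 224.1 and 203.6 CPM in GFPlow, and 594.3 and 139.8 CPM in WT libraries 1 and 2. Every GFPlow library lay above every GFPhi library, and WT library 2 lay below both groups. The log2 difference of GFPhi from GFPlow was -0.32 ± 0.44 (SE; adjusted p = 0.9999) in the 8-library fit. It was -0.32 ± 0.08 (adjusted p = 0.0492) without WT library 1, because the shared spread of the gene no longer held that library. GFPlow exceeded WT library 2 by 0.60 ± 0.12 on the log2 scale (1.51-fold; adjusted p = 0.0289), whereas with both WT libraries its difference was -0.80 ± 0.48 (adjusted p = 0.317).

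S100a10 (ENSMUSG00000041959, chromosome 3, 93555080 to 93564643, plus strand) encodes p11, the partner of annexin A2. It was at 598.8, 719.2 and 774 CPM in GFPhi, 547.2, 567.2 and 650.1 CPM in GFPlow, and 2851 and 699.3 CPM in WT libraries 1 and 2. GFPhi and GFPlow overlapped, and WT library 2 lay within the GFPhi range. The log2 difference of GFPhi from GFPlow was 0.25 ± 0.44 (SE) over 8 libraries and 0.24 ± 0.10 without WT library 1, with adjusted p of 0.9999 and 0.223. GFPlow differed from WT by -1.59 ± 0.48 (adjusted p = 0.114) with both WT libraries. Against WT library 2 alone the value was -0.24 ± 0.15 (adjusted p = 0.446), so the size of that difference came from WT library 1.

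Anxa2 was the gene with the clearest separation between the transgenic groups. It is located on chromosome 9 (ENSMUSG00000032231, 69453620 to 69491795, plus strand) and encodes annexin A2, a membrane and actin binding protein. It was at 106.3, 123.9 and 147.1 CPM in GFPhi, 200.5, 163.3 and 222 CPM in GFPlow, and 120 and 76.8 CPM in WT libraries 1 and 2. All GFPlow libraries lay above all GFPhi libraries and both WT libraries. The means were 125.7 ± 20.5 CPM (SD, n = 3) in GFPhi and 195.3 ± 29.7 CPM (SD, n = 3) in GFPlow. The log2 difference of GFPhi from GFPlow was -0.63 ± 0.23 (SE; adjusted p = 0.297) in the 8-library fit. It was -0.64 ± 0.15 (adjusted p = 0.0318) without WT library 1, and -0.64 (adjusted p = 0.0283) with the 6 transgenic libraries alone. GFPlow exceeded WT by 0.99 ± 0.26 (1.98-fold; adjusted p = 0.0905) with both WT libraries and by 1.35 ± 0.22 (2.55-fold; adjusted p = 0.0132) against WT library 2.

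The transcripts of the p11 and annexin A2 partners did not keep a fixed ratio. Per kb of mRNA, S100a10 stood 11.9, 12.3 and 11.1 times above Anxa2 in GFPhi libraries 1 to 3. In GFPlow libraries 1 to 3 the ratio was 5.77, 7.33 and 6.19, so the groups did not overlap. It was 50.2 and 19.2 in WT libraries 1 and 2. WT library 1, where short mRNAs were raised, exceeded WT library 2 by 4.08-fold for S100a10 (685 bases) and by 1.56-fold for Anxa2 (1447 bases). The S100a6 to S100a4 ratio per kb, by contrast, ran from 6.37 to 9.55 over all 8 libraries, with GFPhi at 8.51, 6.85 and 7.12 and GFPlow at 7.55, 6.37 and 6.59. These ratios were computed after the values were seen and were not tested.

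Anxa1 (ENSMUSG00000024659, chromosome 19, 20373428 to 20390944, minus strand) encodes annexin A1, a ligand of formyl peptide receptors that damps inflammation. It was the scarcest of the 10, at 3.21, 2.20 and 9.34 CPM in GFPhi, 3.36, 9.89 and 18.02 CPM in GFPlow, and 0 and 2.48 CPM in WT libraries 1 and 2. The groups overlapped, and library 3 was the highest in both transgenic groups. The log2 difference of GFPhi from GFPlow was -1.08 ± 1.16 (SE; adjusted p = 0.967). WT library 1 had 0 counts and WT library 2 had 144. Against a floor of 3 counts in WT library 1, which equals 0.0973 CPM, WT library 2 was at least 25.5-fold higher, counting error alone being considered. The fitted difference of GFPlow from WT, 3.03 ± 1.46 (adjusted p = 0.236), depends on how that 0 is handled. Against WT library 2 it was 2.08 ± 1.11 (adjusted p = 0.384).

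Anxa6 (ENSMUSG00000018340, chromosome 11, 54979108 to 55033445, minus strand) encodes annexin A6, which has a doubled set of annexin repeats. It was at 725.9, 760.1 and 725.3 CPM in GFPhi, 762.7, 764.9 and 852.3 CPM in GFPlow, and 117.9 and 700.3 CPM in WT libraries 1 and 2. GFPlow lay above GFPhi without overlap, but by little, with a log2 difference of GFPhi from GFPlow of -0.11 ± 0.06 (SE; adjusted p = 0.296) without WT library 1. WT library 2 was 5.94-fold above WT library 1. That is the opposite order from S100a10, S100a11 and Lgals1, and the difference of GFPlow from WT was 0.96 ± 0.60 (adjusted p = 0.332) with both WT libraries and 0.19 ± 0.08 (adjusted p = 0.279) against WT library 2.

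The galectin genes did not separate GFPhi from GFPlow. Lgals1 (ENSMUSG00000068220, chromosome 15, 78926725 to 78930465, plus strand) encodes galectin-1, which binds T cell glycoproteins such as CD45 and CD43. It was at 283.6, 332.1 and 385.1 CPM in GFPhi, 263.9, 251.5 and 440.1 CPM in GFPlow, and 1116 and 255.4 CPM in WT libraries 1 and 2. GFPlow libraries 1 and 2 were below all GFPhi libraries, and GFPlow library 3 was above them. The log2 difference was 0.07 ± 0.49 (SE; adjusted p = 0.9999). GFPlow differed from WT by -1.11 ± 0.54 (adjusted p = 0.236) with both WT libraries and by 0.33 ± 0.31 (adjusted p = 0.655) against WT library 2, so the direction depended on WT library 1.

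Lgals3 (ENSMUSG00000050335, chromosome 14, 47367751 to 47386160, plus strand) encodes galectin-3, the galectin with a long repeat tail that binds branched sugar chains and is abundant in macrophages. It was at 11.4, 19.4 and 26.1 CPM in GFPhi, 15.9, 13.4 and 26.7 CPM in GFPlow, and 2.63 and 7.83 CPM in WT libraries 1 and 2. GFPhi and GFPlow overlapped fully, and all 6 transgenic libraries lay above both WT libraries. The log2 difference from WT was 1.85 ± 0.57 (SE; adjusted p = 0.348) for GFPhi and 1.83 ± 0.57 (adjusted p = 0.118) for GFPlow. Against WT library 2 alone the values were 1.27 ± 0.54 and 1.26 ± 0.54, with adjusted p of 0.955 and 0.259. Lgals3 is the only one of the 10, with Anxa6, for which all 6 transgenic libraries exceeded both WT libraries.

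Cd44 (ENSMUSG00000005087, chromosome 2, 102811141 to 102901665, minus strand) ran opposite to Anxa2. It was at 99.0, 86.4 and 91.6 CPM in GFPhi, 63.9, 72.1 and 80.8 CPM in GFPlow, and 107.2 and 108.8 CPM in WT libraries 1 and 2. The 3 groups did not overlap, with WT above GFPhi and GFPhi above GFPlow. Its WT libraries were nearly equal, so WT library 1 moved its values little. The log2 difference of GFPhi from GFPlow was 0.35 ± 0.16 (SE; adjusted p = 0.439) over 8 libraries and 0.35 ± 0.10 (adjusted p = 0.0798) without WT library 1. GFPlow differed from WT by -0.58 ± 0.17 (adjusted p = 0.11) over 8 libraries and by -0.58 ± 0.14 (adjusted p = 0.053) against WT library 2.

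Between GFPhi and GFPlow, 4 of the 10 genes had libraries that did not overlap: Cd44 was higher in GFPhi, and S100a11, Anxa2 and Anxa6 were lower. Over all genes tested, 16% were higher and 14% lower without overlap, 30% in all. Between GFPlow and WT 4 of the 10 were higher without overlap (Anxa1, Anxa2, Anxa6 and Lgals3) and 2 were lower (S100a10 and Cd44), beside 21.1% and 19.2% of all genes, 40.3% in all. Between GFPhi and WT 2 were higher (Anxa6 and Lgals3) and 1 was lower (Cd44), beside 15.6% and 12.6% of all genes, 28.1% in all. Without WT library 1, the Pearson correlations of log2 CPM over 7 libraries were 0.924 between S100a4 and Anxa2, 0.918 between S100a6 and Anxa2 and 0.902 between S100a11 and Anxa2. WT library 2 was the lowest of the 7 for all 4 of these genes and is part of each value. Anxa2 and Cd44 had -0.837, and S100a11 and Cd44 had -0.893. The median of all 45 pairs was 0.581 over these libraries and 0.128 over all 8, where WT library 1 weighed on each pair.

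Between GFPhi and WT, none of the 10 genes passed with both WT libraries or with WT library 2 alone. With both, the log2 difference of GFPhi from WT was 0.03 ± 0.61 (SE) for S100a4, -0.29 ± 0.63 for S100a6, -1.35 ± 0.48 for S100a10 and -1.12 ± 0.48 for S100a11. With WT library 2 alone these became 1.59 ± 0.47, 1.58 ± 0.35, -0.0046 ± 0.15 and 0.28 ± 0.12. S100a4 and S100a6 were thus 3.01-fold and 2.99-fold above WT library 2 in GFPhi, with an adjusted p of 0.955 and 0.911, and S100a10 was level with it. Among the annexins, the differences with both WT libraries were 1.94 ± 1.39 for Anxa1, 0.35 ± 0.26 for Anxa2 and 0.85 ± 0.59 for Anxa6. These became 0.98 ± 1.04, 0.71 ± 0.21 and 0.07 ± 0.08 against WT library 2. Lgals1 went from -1.04 ± 0.54 with both WT libraries to 0.38 ± 0.31 against WT library 2, and Cd44 stayed at -0.23 ± 0.17 and -0.24 ± 0.14. The adjusted p of these 10 genes ran from 0.348 to 0.983 with both WT libraries.

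**Figure D4:**
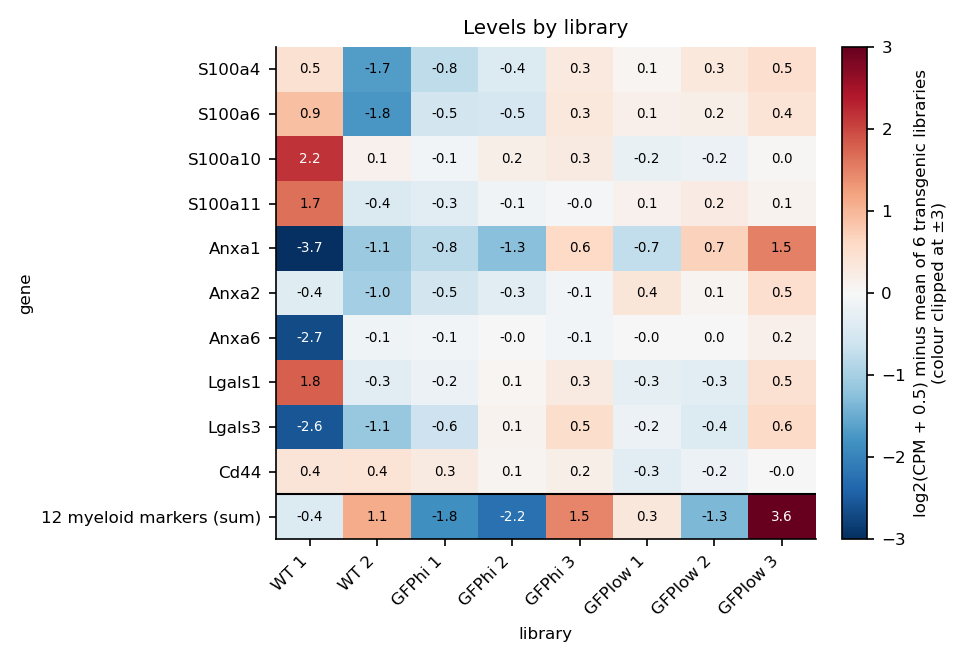
Level of each gene in each library as log2 (CPM + 0.5) minus the mean of the 6 transgenic libraries, with the summed 12 myeloid markers in the bottom row. Blue is lower and red higher, and the colour stops at ±3. S100a4, S100a6, S100a10, Anxa1, Anxa2, Lgals1 and Lgals3 were highest in library 3 within GFPhi and within GFPlow. The myeloid sum was also highest in those libraries, and they alone of the 6 transgenic libraries were high in Xist.

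Within both GFPhi and GFPlow, library 3 was the highest for 7 of the 10 genes: S100a4, S100a6, S100a10, Anxa1, Anxa2, Lgals1 and Lgals3. The share of all genes with this order was not computed. In each transgenic group, library 3 was also the only library with high Xist and no Ddx3y count. The myeloid sum was the highest in those libraries too, and Fpr1, a receptor for annexin A1 in myeloid cells, was at 1.71 and 6.96 CPM there and at 0.542 CPM or less elsewhere. With both libraries 3 left out, edgeR called 0 genes between GFPhi and GFPlow on the remaining 6 libraries. With WT library 1 left out as well, 1419 genes were called, among them S100a6 (log2 difference -0.67, adjusted p = 0.0102) and Anxa2 (-0.66, adjusted p = 0.0377). S100a11 was not called there, although its log2 difference was -0.39 (adjusted p = 0.0749). In GFPlow against WT library 2 without libraries 3, S100a4, S100a6, S100a11 and Anxa2 lay higher and Cd44 lay lower (log2 difference -0.68). This sets GFPlow libraries 1 and 2 against WT library 2 alone, so it is not read as a result about the 10. With libraries 3 kept and WT library 1 left out, the log2 differences of GFPhi from GFPlow were -0.44 for S100a6 and -0.64 for Anxa2. Without libraries 3 and WT library 1, the fit held only libraries 1 and 2 of GFPhi and GFPlow and WT library 2. Among these, the myeloid sum was still 32.0 CPM in GFPlow library 1, against 6.62 and 4.88 CPM in GFPhi libraries 1 and 2. The part of myeloid transcripts in the differences was not tested. Of NK cell markers, Klrb1c was at 10.1, 11.1 and 31.4 CPM in GFPlow, against 2.49, 1.41 and 1.13 CPM in GFPhi (adjusted p = 0.0353). The 7 NK markers summed to 19.2 to 55.9 CPM in GFPlow, 2.2 to 6.3 CPM in GFPhi, 9.31 CPM in WT library 1 and 1.85 CPM in WT library 2. In GFPlow libraries 1 and 2, nearly all of that sum was Klrb1c and Eomes (10.4 and 7.4 CPM). Ncr1 was at 0 there, and Klra8, Klra4, Klre1 and Klri2 were at 0.6705 CPM or less. GFPlow library 3 held Ncr1 at 7.81, Klre1 at 4.96 and Klra8 at 2.79 CPM. The part of NK markers in the differences of the 10 genes was not tested. In bulk RNA, fewer cells with a transcript and less transcript per cell cannot be told apart.

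For each gene, the genes most like it were those with the highest Pearson correlation of log2 CPM over the 8 libraries, among 8873 compared. They were Rab35 (0.971) and Med27 (0.925) for S100a4, and Srsf6 (0.932) and Mapk8 (0.93) for S100a6. S100a10 had Sar1b and Xlr4a (both 0.998), and S100a11 had Tm2d1 (0.994) and Dmac1 (0.992). Anxa1 had Ltn1 (0.988), Anxa2 had Dnase1l1 (0.959) and Zfp800 (0.958), and Anxa6 had Brms1 and Gm4735 (both 0.999). Lgals1 had Ndufaf6 (0.981) and Ccdc124 (0.978), Lgals3 had Terf2ip (0.98) and Tbc1d22a (0.969), and Cd44 had Nek7 (0.979) and Gtdc1 (0.956). The values near 1 for S100a10, S100a11 and Anxa6 rest on 8 libraries of which WT library 1 is far from the others.

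Among the other members of the 3 families, 1 gene differed between GFPhi and GFPlow. Anxa4, a calcium-dependent membrane binder, was at 18.1, 27.6 and 27.1 CPM in GFPhi, 10.3, 6.34 and 8.80 CPM in GFPlow, and 16.4 and 18.5 CPM in WT. All GFPhi libraries exceeded all GFPlow libraries, by 1.52 on the log2 scale (adjusted p = 0.0279), the opposite direction from Anxa2. Of 9 other annexin genes 6 were tested, and no other was called. Anxa5, whose protein binds exposed phosphatidylserine, was at 170.4 to 195.7 CPM in GFPhi and 202.2 to 222.5 CPM in GFPlow (log2 difference -0.24, adjusted p = 0.737). Anxa7 was lower in GFPhi (-0.32, adjusted p = 0.0461) in the fit without WT library 1, where 4.3% of all genes were lower.

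Of 13 other S100 genes 6 were tested, and 0 were called in any comparison. Over all genes tested, 2.26% passed between GFPhi and GFPlow, 3.3% between GFPlow and WT and 0% between GFPhi and WT. S100a13, named here as the most abundant of them, was at 97.2 to 109.8 CPM in GFPhi, 103.5 to 119.4 CPM in GFPlow, with 516.5 and 112.5 CPM in WT, so WT library 1 was its highest too. Of 8 other galectin genes 5 were tested and 0 were called. Lgals9, named here because it encodes a described ligand of TIM-3, was at 491.8 to 608.5 CPM in GFPhi, 511.7 to 620.3 CPM in GFPlow and 305 and 556.9 CPM in WT. Its log2 difference between GFPhi and GFPlow was -0.08 (adjusted p = 0.9999).

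Partners and receptors of these proteins were taken as a list of 31 genes, of which 25 were tested and 0 were called over 8 libraries in any comparison. Of all genes tested, 2.26% passed between GFPhi and GFPlow, 3.3% between GFPlow and WT and 0% between GFPhi and WT. The genes with the smallest p between GFPhi and GFPlow were Mgat5, Ahnak, Plaur and Cd7. Mgat5, the enzyme that makes the branched sugar chains galectin-3 binds, was at 39.0, 33.5 and 31.9 CPM in GFPhi, 19.5, 21.1 and 17.9 CPM in GFPlow, and 28.5 and 46.0 CPM in WT. The GFPhi libraries all lay above the GFPlow libraries, with a log2 difference of 0.84 (adjusted p = 0.121) over 8 libraries and 0.83 (adjusted p = 0.00485) without WT library 1. Ahnak, a large scaffold bound by the p11 and annexin A2 complex, was at 93.8, 99.0 and 109.4 CPM in GFPhi, 53.4, 77.7 and 66.7 CPM in GFPlow, and 68.9 and 75.6 CPM in WT. It was higher in GFPhi by 0.61 on the log2 scale (adjusted p = 0.0313) without WT library 1. Thus Ahnak and Anxa2 differed in opposite directions in that fit.

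Of the 25 partners tested, 2 were higher in GFPhi than in GFPlow in the same fit (Mgat5 and Ahnak). Another 5 were lower, Spn, Ptprc, Ezr, Msn and Pdcd6ip, beside 5.35% of all genes higher and 4.3% lower. Of these 5, all but Ezr and Pdcd6ip were named after their values were seen. Spn and Ptprc encode CD43 and CD45, surface glycoproteins that galectin-1 binds, and their log2 differences were -0.34 and -0.21 (adjusted p = 0.0372 and 0.0383). Ezr and Msn encode ezrin and moesin, which link CD44 to actin. Ezr differed by -0.28 (adjusted p = 0.0172) and Msn by -0.28 (adjusted p = 0.0107), while Cd44 itself lay higher in GFPhi. Hyaluronan synthase genes Has1 and Has2 were at or near 0, with no library above 0.336 CPM.

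Genes of effector and memory T cells did not move as a block with the 10. Of 30 such genes, all tested, 3 were higher in GFPhi than in GFPlow (Klrg1, Il2rb and Capg) and 4 were lower (Id2, Ccl5, Cxcr6 and Tbx21), with a median log2 difference of -0.14. Over all genes 1.63% were higher and 0.626% lower. Without WT library 1 the list's counts were 6 higher and 9 lower, beside 5.35% and 4.3% of all genes. Tbx21, the T helper 1 regulator, was at 4.48 to 7.57 CPM in GFPhi, 15.3 to 18.1 CPM in GFPlow and, in WT libraries 1 and 2, 1.59 and 1.78 CPM (log2 difference of GFPhi from GFPlow -1.49, adjusted p = 0.0295). Capg, an actin capping protein gene, was at 477.3 to 626.1 CPM in GFPhi and 151.8 to 197 CPM in GFPlow (1.74, adjusted p = 0.00921). Between GFPlow and WT, Tagln2, Cxcr3, Cxcr6 and Tbx21 were higher and Capg was lower, beside 1.08% and 2.23% of all genes. With WT library 2 alone as WT, the median log2 difference of GFPlow from WT was 0.64 over the 30, with 21 above 0 and 9 below. Over all genes tested that median was 0.03. None of the 30 passed between GFPhi and WT in either fit.

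Genes of naive and recirculating T cells all had lower fitted values in GFPhi than in GFPlow, 16 of 16, with a median log2 difference of -0.84. Of these, 7 passed the test: Lef1, Tcf7, Il7r, Satb1, Igfbp4, Dapl1 and Actn1, beside 0.626% of all genes lower. Without WT library 1, 11 of the 16 passed, with Ccr7, Klf2, S1pr1 and Bach2 added, beside 4.3% of all genes. Tcf7, the transcription factor of naive and stem-like T cells, was at 183.9 to 198.3 CPM in GFPhi, 510.8 to 631.9 CPM in GFPlow and 192.5 and 194.3 CPM in WT (log2 difference of GFPhi from GFPlow -1.64, adjusted p = 0.00346). Its 2 WT libraries lay within the GFPhi range. GFPlow thus held more of these 7 naive cell transcripts than GFPhi. Of the effector and memory list, it held more Id2, Ccl5, Cxcr6 and Tbx21 but less Klrg1, Il2rb and Capg. In the fit without WT library 1, GFPlow also held more Anxa2 than GFPhi. The gates of GFPhi and GFPlow differ in FoxP3, and the share of each cell state within a gate was not measured.

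**Figure D5:**
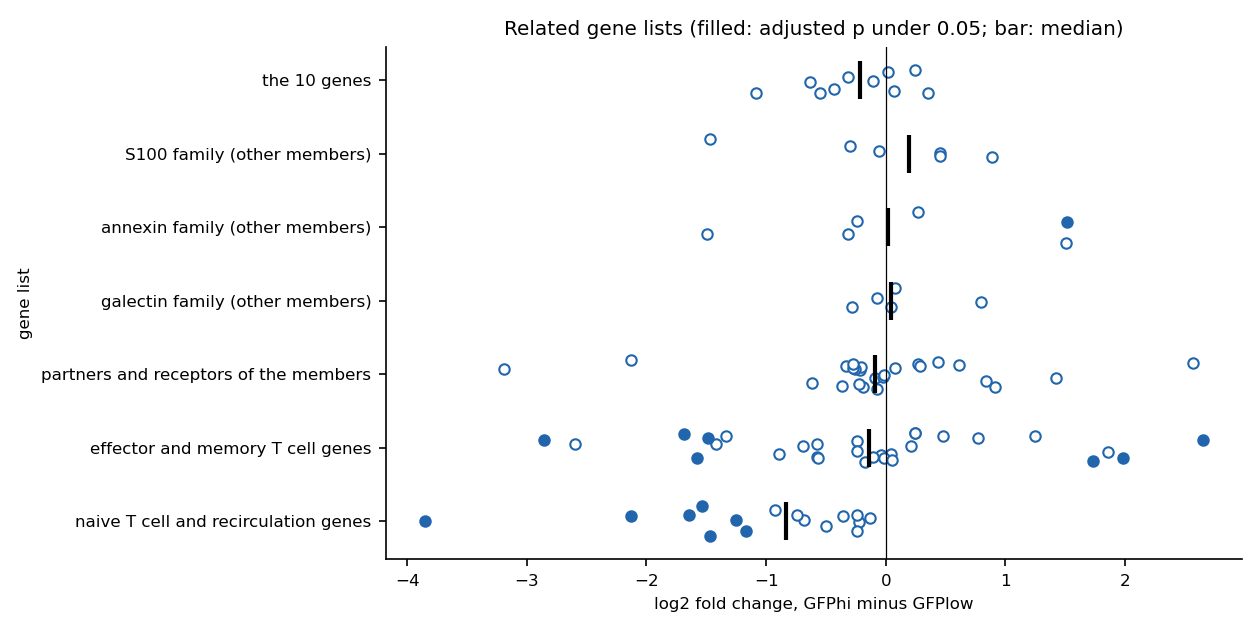
Log2 difference between GFPhi and GFPlow (GFPhi minus GFPlow, 8-library fit) for the 10 genes and the 6 related lists, 1 circle per gene tested. Filled circles passed an adjusted p of 0.05 and black bars are medians, which lie at -0.21 for the 10 genes and at -0.84 for the naive list.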

How the data were processed

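The authors deposited raw counts for each Ensembl gene in 1 table, not normalized. The submitters' processing notes name build GRCm38 and the tools HTSeq 0.11.2, HISAT2 2.1.0, SAMtools 1.9, R 4.0 and edgeR; per the labels' protocols, libraries came from the Nextera XT and SMART-Seq HT kits. Strand setting and annotation were not given in the sources used here, and reads of overlapping genes cannot be told apart. Of 54837 identifiers, 54808 matched GENCODE vM21, which gave symbols, positions and the principal transcript of each gene.

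Counts were filtered with filterByExpr, scaled by TMM and fitted in edgeR 4.0.16 (R 4.3.3, glmQLFit, robust, 1 mean per group, 5 residual degrees of freedom). The 3 comparisons used two-sided quasi-likelihood tests, with Benjamini-Hochberg adjustment over all genes tested. Values are TMM-scaled CPM; log2 CPM used a prior count of 2. Other fits used DESeq2 1.42.0 and limma 3.58.1. The model was also run on simulated counts with changes planted in GFPhi only. No simulated library had the raised short transcripts of WT library 1, so that run cannot show how it affects the calls. Related genes named are those with the smallest adjusted p of each list, up to 4, any tested member of the 3 families, or others chosen after their values were seen. The 10 genes and the lists were chosen with earlier results of these data known. Counting limits cover counting error only. For each of the 10 genes up to 2 similar genes are named, and 1 is not reported here.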

Additional observations from a re-analysis of the deposited data

How the results depend on the processing

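WT library 1 decides most calls here. The genes called between GFPhi and GFPlow (426) became 1375 with DESeq2, 2271 with limma voom, 3242 and 2105 with DESeq2 and voom without WT library 1, and 2105 with only both groups fitted. Those between GFPlow and WT (623) became 3243, 72, 2448, 1418 and 33 in the same fits. Those between GFPhi and WT (0) became 320 with DESeq2, 71 with DESeq2 without WT library 1, and 1 with no filter. Leaving out 1 library at a time gave 105 to 1984, 213 to 9002 and 0 to 8234 genes; 8234 and 9002 came without WT library 2.

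Of the 10 genes, 0 were called in each comparison. Between GFPhi and GFPlow the count became 1 with voom, 3 with DESeq2 without WT library 1, and 2 with voom without it or with only both groups fitted. Between GFPlow and WT it became 4 with DESeq2, and 5 and 4 with DESeq2 and voom without WT library 1. Between GFPhi and WT it became 1 with DESeq2, with or without WT library 1. Leaving out 1 library at a time gave 0 to 2, 0 to 8 and 0 to 7. The 7 and 8 came without WT library 2, that is against WT library 1 alone.

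Leaving out libraries 3, chosen after seeing the data, gave 0, 13 and 0 genes and none of the 10. With WT library 1 also left out it gave 1419, 961 and 6 genes and 2, 5 and 0 of the 10.

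Titles carry M1 to M3 in both GFPhi and GFPlow, and in both groups library 3 alone was high in Xist and had no Ddx3y count, but the labels do not say that a number is a shared mouse. The deviations of same-numbered GFPhi and GFPlow libraries correlated at 0.067, 0.066 and 0.149 across genes, each the highest with its own number, and pairing was not assumed. With the replicate number as a block, 182, 158 and 0 genes were called, 211 and 213 in the first comparisons with a length offset too, and none of the 10. With the block and WT library 1 left out, 1744, 720 and 4 genes and 2, 4 and 0 of the 10 were called.

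Directions that turned are log2 differences, and the cause was not tested except where the fit left out WT library 1. Between GFPhi and GFPlow, Lgals3 (0.02) was -0.042 with the length offset, -0.043 with the block, -0.10 with both and -0.0020 with the block and WT library 1 left out; with 1 library left out it ran from -0.28 to 0.37, and Lgals1 (0.07) from -0.078 to 0.37. Between GFPlow and WT, S100a6 (0.14) was -0.031 with a filter of 5 CPM in 2 libraries and -0.10 with upper quartile scaling. Without WT library 1, S100a11 (-0.80) was 0.60 under DESeq2, 0.60 under voom and 0.66 under the block, and 0.62 without libraries 3; Lgals1 (-1.11) was 0.32, 0.24, 0.14 and 0.011. With 1 library left out, S100a6 ran from -0.63 to 2.02, S100a4 from -0.13 to 2.15, S100a11 from -1.47 to 0.60 and Lgals1 from -1.78 to 0.33. Between GFPhi and WT, S100a4 (0.03) was -0.12 with the 5 CPM filter, -0.0072 with median-of-ratios factors, -0.041 with the block, -0.19 with upper quartile scaling and -0.35 without libraries 3. S100a6 (-0.29) was 0.54 with voom. Without WT library 1, S100a6 was 1.58 under DESeq2, 1.504 under voom, 1.36 under the block and 1.25 without libraries 3; S100a11 (-1.12) was 0.28, 0.28, 0.34 and 0.22, and Lgals1 (-1.04) was 0.38, 0.38, 0.24 and 0.27. Anxa2 (0.35) was -0.017 with the length offset and -0.047 with block and offset. With 1 library left out, S100a4 ran from -0.68 to 1.59, S100a6 from -1.06 to 1.58, S100a11 from -1.78 to 0.28 and Lgals1 from -1.72 to 0.38.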
